A study of Mus musculus with 5 samples.

Results

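The NFI family of transcription factors has 4 genes in the mouse, Nfia, Nfib, Nfic and Nfix, and all 4 were taken as listed members out of 21938 annotated protein-coding genes. Every deposited Gfi1 and Lsd1 peak in the gene body or within 10 kb of it was read, which gave 222 peaks of the 125494 in the series. Both factors were profiled by chromatin immunoprecipitation and sequencing (ChIP-seq) in 2 MG tumors, numbered 39 and 41. MG tumors are mouse medulloblastomas grown from Prominin1+, lineage-negative cerebellar stem cells of C57BL/6 pups, sorted at postnatal days 5 to 7, that were infected with retroviruses carrying a stabilised point mutant of Myc and wild-type Gfi1. The infected cells were transplanted into immunodeficient NSG mice, and the tumors were taken from adult hosts, so that both tumors carried Gfi1 from a virus. The one input chromatin sample of the series was a pool of MGB tumors, which carry Myc and Gfi1b, and was not analysed here. The sources used here do not state whether it was the control for all 4 peak lists. There was no tumor without Gfi1 among the libraries, and no expression was measured in them. The 4 lists held from 25078 peaks (Gfi1, tumor 41) to 36836 (Gfi1, tumor 39), with median widths from 1443 bp to 1765 bp.

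NFI proteins bind DNA as dimers, at paired copies of the motif TTGGC on opposite strands, and share a conserved DNA-binding domain. In the developing brain and cerebellum, they are known for the onset of glial fates and for the maturation of granule neurons, the cell lineage from which many medulloblastomas arise. Gfi1 is a zinc finger repressor that recognises a core of AATC and recruits the histone demethylase Lsd1 (gene symbol Kdm1a) through its SNAG domain.

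The 4 genes differed in how their peaks were laid out. Nfix lay almost wholly under peaks of both factors in both tumors, Nfic lay under them over 63.0% to 73.7% of its body, Nfia carried many separate peaks at its starts and in its introns, and Nfib, the longest of the 4, carried only 3 or 4 peaks in each library. In Gfi1 of tumor 39 there were 17 peaks at Nfia, 3 at Nfib, 12 at Nfic and 20 at Nfix. Gfi1 of tumor 41 had 23, 3, 8 and 25 peaks at the same genes. For Lsd1 the numbers were 28, 3, 9 and 16 in tumor 39 and 25, 4, 11 and 15 in tumor 41. The number of peaks alone does not show the difference between the genes, because peaks at Nfic and Nfix were far wider, as the map of the peaks shows.

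**Figure D1:**
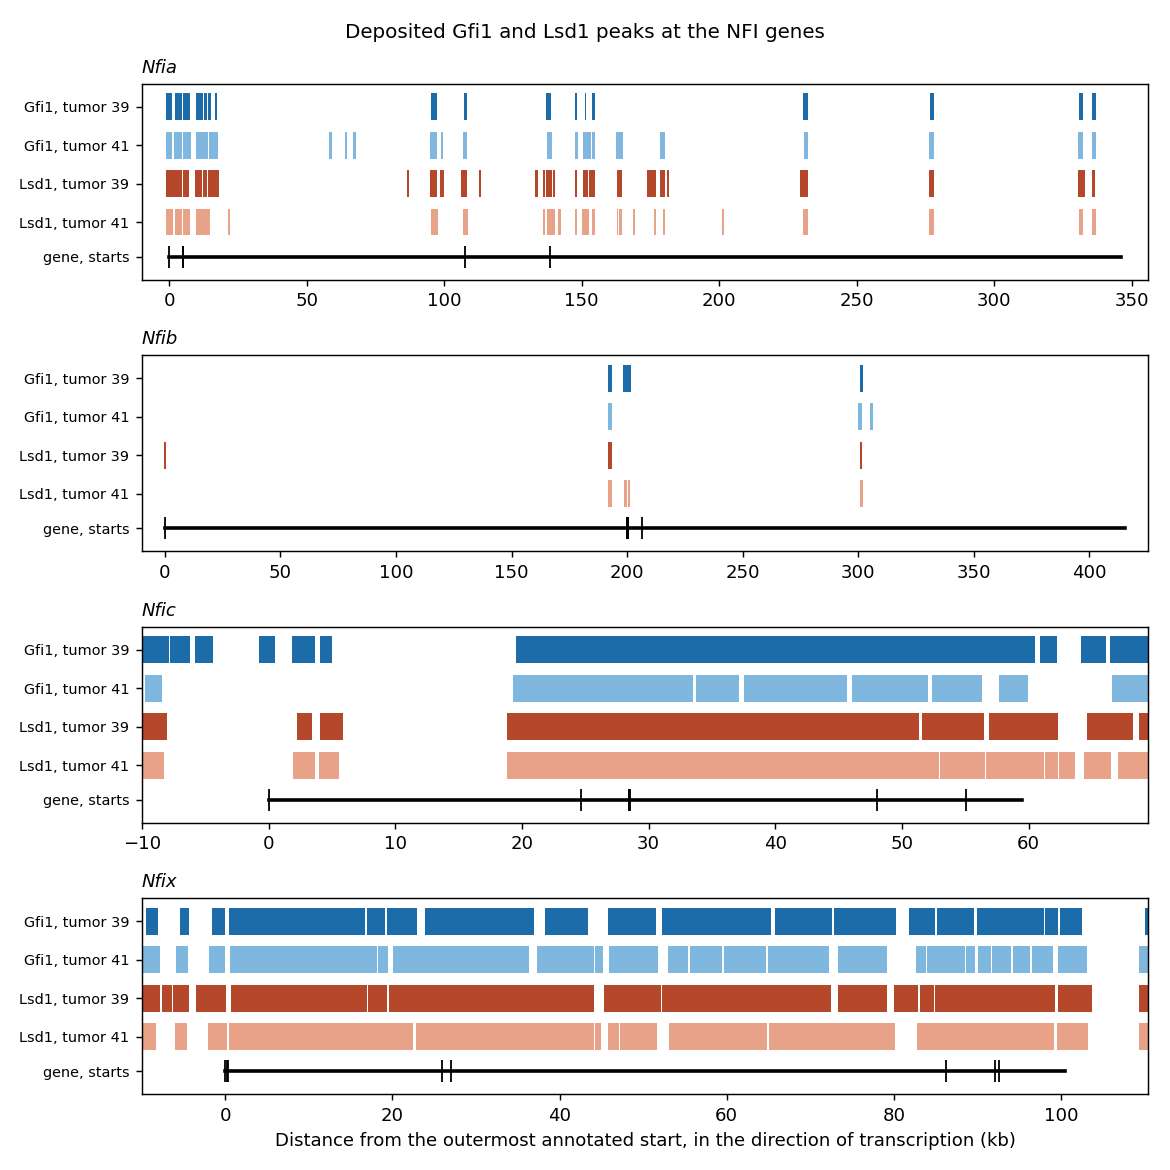
Peaks of each library at the 4 NFI genes, against distance in kb from the outermost annotated start in the direction of transcription, with 10 kb on either side. Coloured blocks are deposited peaks drawn to scale, the black line is the gene body and the ticks are annotated starts. Peaks fill most of Nfix and Nfic in all 4 libraries and lie scattered over Nfia and Nfib.

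The sequences below are those of the windows on which the account turns, all read on the strand of the gene in GRCm38, the build of mm10. The promoters are RefSeq's, from 250 bases before a start to 50 after it, and they were chosen because they hold annotated starts of Nfic and Nfix that lie inside the wide peaks. The Nfia sequence is the central 300 bases of an intronic stretch that all 4 libraries share. In each of these, capitals mark the Gfi1 core AATC and the NFI element TTGGC on either strand, read as GATT and GCCAA on the opposite strand, and overlapping matches run together.
Nfic promoter, chr10:81427124-81427423, minus strand: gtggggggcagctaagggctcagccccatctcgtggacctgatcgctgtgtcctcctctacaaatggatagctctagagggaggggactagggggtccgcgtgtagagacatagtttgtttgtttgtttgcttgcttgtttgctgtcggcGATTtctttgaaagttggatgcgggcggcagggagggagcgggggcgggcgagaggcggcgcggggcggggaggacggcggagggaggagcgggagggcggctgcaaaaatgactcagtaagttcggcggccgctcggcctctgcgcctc
Nfix promoter, chr8:84773361-84773660, minus strand: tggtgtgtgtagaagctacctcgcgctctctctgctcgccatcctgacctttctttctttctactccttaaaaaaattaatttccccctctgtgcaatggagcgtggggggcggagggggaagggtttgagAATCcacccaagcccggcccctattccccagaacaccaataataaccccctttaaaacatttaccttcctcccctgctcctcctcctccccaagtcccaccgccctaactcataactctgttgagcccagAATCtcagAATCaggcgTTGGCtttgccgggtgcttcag
Nfia intronic site, chr4:97868819-97869118, plus strand: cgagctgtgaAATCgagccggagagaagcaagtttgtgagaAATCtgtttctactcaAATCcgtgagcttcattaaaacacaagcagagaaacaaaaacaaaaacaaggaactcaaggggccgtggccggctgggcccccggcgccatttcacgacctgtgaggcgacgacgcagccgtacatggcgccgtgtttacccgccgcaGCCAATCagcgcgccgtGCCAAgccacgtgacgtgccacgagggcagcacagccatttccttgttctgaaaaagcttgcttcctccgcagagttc

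The Nfic promoter held 1 match to AATC and no match to TTGGC, with 24 CG dinucleotides and a GC content of 63.0%. The Nfix promoter held 3 matches to AATC, 1 to TTGGC and 9 CG dinucleotides, at a GC content of 53.0%. The Nfia site held 4 matches to AATC, 2 to TTGGC and 24 CG dinucleotides, at 55.7% GC. Such short motifs are common, and AATC was found in 73.1% and TTGGC in 46.7% of 32851 RefSeq promoters of the same length. RefSeq places 3 more promoters inside Nfix, and all 4 had a peak in every library. The RefSeq promoter of Nfia, chr4:97581693-97581992, lay upstream of the annotated gene used here and had no peak in any library. Of the NFI genes, Nfib had no entry in the promoter table.

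Nfix, at chr8:84699876-84800344 on the minus strand, is 100 kb long and was covered along nearly its whole length. Peaks covered 90.8% of the gene body in Gfi1 of tumor 39, 88.8% in Gfi1 of tumor 41, 95.6% in Lsd1 of tumor 39 and 93.6% in Lsd1 of tumor 41. The mean was 92.2% ± 3.02 (SD, n = 4), and the 4 libraries lay within 6.82 percentage points of each other. The bases under a peak in all 4 libraries made up 82.2% of the gene body, and those under a peak in any library 99.4%. Exons and introns were covered alike, from 88.2% to 97.2% of exon bases and from 88.8% to 95.7% of intron bases.

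By its least covered library, Nfix ranked 1 of 5007 protein-coding genes of 50 kb or more. The median of these genes was 0.959%. Nfix ranked 2 in Gfi1 of tumor 39 and 1 in each of the other libraries. The rank is a description, without a test, and the share of the gene body was chosen as a measure after the width of the peaks had been seen.

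Nfic, at chr10:81396186-81455635 on the minus strand, is 59.5 kb long, and its coverage broke off at the same place in every library. The covered share was 72.4% in Gfi1 of tumor 39, 63.0% in Gfi1 of tumor 41, 72.2% in Lsd1 of tumor 39 and 73.7% in Lsd1 of tumor 41, with a mean of 70.3% ± 4.94 (SD, n = 4). Gfi1 of tumor 41 was the lowest by 9.23 percentage points, and the other 3 libraries lay close together. By its least covered library Nfic ranked 2 of 5007, and 4 without Gfi1 of tumor 41. The upstream edge of the covered stretch fell at 81436066 and 81436313 for Gfi1 and at 81436778 and 81436815 for Lsd1 in tumors 39 and 41, so that 4 edges called separately lay within 749 bp.

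The 3 starts around 81427173, to which the Nfic promoter above belongs, lay inside that stretch. The outermost start of Nfic, at 81455635, lay 18.8 kb or more upstream of it and had a peak only in Gfi1 of tumor 39, at percentile 29.0 of its list. Between them 2 smaller intronic sites were each found in 3 libraries, all but Gfi1 of tumor 41. Over 50% of the gene body was under peaks in each library at 7 of the 5007 genes, or 0.14%, and 2 of these 7 were Nfix and Nfic. The other 5, named after their values had been seen, were Bahcc1, Ccdc85c, Gse1, Lmx1b and Epo, with 59.6%, 58.7%, 53.4%, 51.2% and 50.3% in their least covered library.

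**Figure D2:**
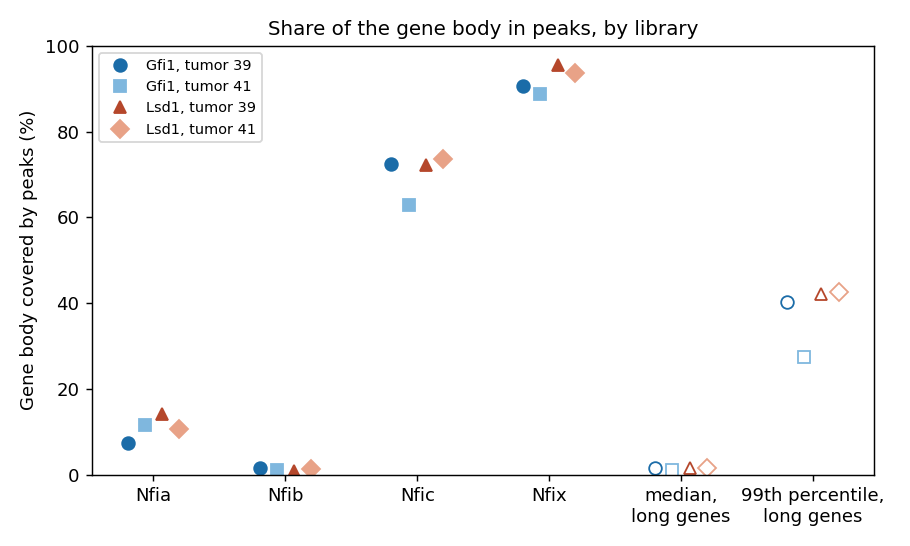
Share of the gene body under peaks, in percent, for each NFI gene and library, beside the median and the 99th percentile of 5007 protein-coding genes of 50 kb or more (open symbols). Each symbol is 1 library. Nfix and Nfic lie above the 99th percentile in all 4 libraries, Nfia lies between the median and the 99th percentile, and Nfib lies below the median in 3 libraries and just above it in Gfi1 of tumor 39.

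Some of the peaks over both genes were very wide. Of the 222 peaks at the NFI genes, 19 were at least 10 kb wide, or 8.56%, against 0.55% of all peaks in the series. There were 13 of them at Nfix and 6 at Nfic, and none at Nfia or Nfib. The Lsd1 peak of tumor 41 over Nfic, at chr10:81403324-81436815, was 33492 bp wide and the widest of the 33213 in its list. Within Nfix the widest Gfi1 peak measured 16323 bp in tumor 39 and 17567 bp in tumor 41. The widest Lsd1 peak there measured 24592 bp in tumor 39 and 22039 bp in tumor 41. When peaks of 10 kb or more were left out, an alternative chosen after the lists had been seen, the least covered library held 11.1% of Nfix and 16.3% of Nfic, and the genes ranked 189 and 109. At Nfix the Gfi1 peaks left out measured 10878 and 16323 bp in tumor 39, of 91186 bp covered. In tumor 41 they measured 10397 and 17567 bp, of 89176 bp covered. Most of the Gfi1 coverage of Nfix thus came from peaks under 10 kb, and the fall to 11.1% does not hold for Gfi1 there.

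Width and score parted at some of the wide peaks. The score is the authors' value in the fifth column of their lists, and it is given here as a percentile within its own list, since its definition is not given in the sources used here. Over the main Nfic starts the score was 3100 in Gfi1 of tumor 39 and 3100 in Lsd1 of tumor 39, at percentiles 98.6 and 99.7. A score of exactly 3100 was shared by 805 peaks (2.19%) of the first list and 113 (0.372%) of the second. Such tied peaks have the same percentile within a list. Over the same starts the score was 2488.5 in Lsd1 of tumor 41, at percentile 97.0. In Gfi1 of tumor 41 it was 128.08, at percentile 41.4, although that peak was 14191 bp wide and the 9th widest of its list. A similar gap was seen within Nfix, where the Lsd1 peak of 24592 bp in tumor 39 scored 66.56, at percentile 12.2. That peak lay over the Nfix promoter printed above. Over all lists, the median percentile of peaks at least 10 kb wide was between 89.7 and 93.7, so that low scores were not the rule for wide peaks.

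For each gene, the highest peak within 1000 bp of any of its starts was compared by its percentile. For Nfic, Gfi1 in tumors 39 and 41 reached percentiles 98.6 and 97.6, and Lsd1 reached 99.7 and 97.0. For Nfix, Gfi1 ranked 98.6 and 98.8 and Lsd1 76.0 and 96.4, and the Lsd1 library of tumor 39 stood below the others. All of these but Gfi1 of tumor 41 came from starts of transcripts not labelled protein-coding, such as that at 84707716. The coding starts of Nfix from 84800024 to 84800344 ranked 68.3 and 82.0 for Gfi1 and 74.1 and 72.5 for Lsd1. Its coding starts at 84773396 and 84774369 ranked 93.6 and 98.8 for Gfi1 but 12.2 and 76.9 for Lsd1. For Nfia, Gfi1 ranked 89.9 and 88.1 and Lsd1 87.6 and 84.6, the narrowest range of the 3 genes with a peak in every library after Nfic. The means were 98.2 ± 1.19 (SD, n = 4) for Nfic, 92.4 ± 11.01 for Nfix and 87.5 ± 2.18 for Nfia. Over the 4 libraries, Nfic and Nfix, neighbours in this order, did not differ beyond the spread of Nfix, and neither did Nfix and Nfia. That spread pools both factors and came mainly from Lsd1 of tumor 39. For Gfi1 alone, Nfix stood at 98.7 ± 0.104 (SD, n = 2) and Nfia at 89.0 ± 1.30, which differed beyond their spread. For Lsd1 alone they stood at 86.2 ± 14.4 and 86.1 ± 2.08. With starts of protein-coding transcripts only, the means over the 4 libraries were 98.2 for Nfic, 86.2 for Nfia and 85.9 for Nfix, so that Nfia stood above Nfix.

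A peak within 1000 bp of a start in all 4 libraries was found at 3 of the 4 NFI genes. Such peaks were common, at 53.1% of all protein-coding genes and at 62.5% of those of 50 kb or more, so that 3 of 4 is near the background. All 8 starts of Nfia and all 8 of Nfix had a peak in each library, as had 6 of the 7 of Nfic and 0 of the 8 of Nfib.

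Nfia, at chr4:97772734-98118874 on the plus strand, drives glial fate in the developing nervous system and is 346 kb long. Peaks covered 7.42% and 11.5% of its body in the Gfi1 libraries of tumors 39 and 41, and 14.2% and 10.6% in those of Lsd1, with a mean of 10.9% ± 2.78 (SD, n = 4). The libraries of the 2 factors overlapped in range. After merging peaks that share a base, Nfia held 32 sites, of which 14 had a peak in all 4 libraries. These 14 were 5 sites at starts, 1 that touched an exon and 8 in introns. Another 11 sites were found in 1 library only, 3 of them of Gfi1 and 8 of Lsd1, and their peaks ranked low, between percentiles 1.70 and 27.8.

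The main starts of Nfia, between 97777608 and 97777834, had peaks at percentiles 89.9 and 86.3 for Gfi1 in tumors 39 and 41 and 82.3 and 84.3 for Lsd1. The start at 97911033 ranked 74.4 and 83.5 for Gfi1 and 87.6 and 77.4 for Lsd1, while that at 97880119 stood lower in every library, between 41.8 and 53.0. E130114P18Rik, a protein-coding gene on the opposite strand, starts within 214 bp of Nfia, and its start was under a peak in all 4 libraries. The peaks there cannot be told apart by gene.

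The intronic site shown above was the only site of Nfia outside its starts that met the high-confidence rule. It reached percentiles 86.4 and 94.3 for Gfi1 and 92.7 and 86.7 for Lsd1, which was above the start peaks of the same library in 3 of 4 libraries. All 4 libraries shared 2126 bp, at chr4:97867906-97870031, which is the whole Gfi1 peak of tumor 39. The site is 9477 bp from the nearest annotated start.

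Nfib, at chr4:82290173-82705750 on the minus strand, is needed for the maturation of cerebellar granule neurons and is 416 kb long. Its covered share was 1.57% and 1.08% for Gfi1 and 0.735% and 1.21% for Lsd1, with a mean of 1.15% ± 0.345 (SD, n = 4). The median of long genes was 1.53% and 1.18% in the Gfi1 libraries and 1.54% and 1.53% in those of Lsd1, so that Nfib lay below it in all but Gfi1 of tumor 39, and furthest below it in Lsd1 of tumor 39. Of its 5 sites, 2 had a peak in every library, and both were intronic. That at chr4:82512158-82513922, 6379 bp upstream of the main starts, ranked 65.6 and 35.6 for Gfi1 and 52.6 and 64.1 for Lsd1. That at chr4:82403851-82405771 ranked 59.0 and 53.7 for Gfi1 and 19.1 and 43.0 for Lsd1.

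The libraries disagreed at the Nfib starts. At the main starts, from 82505308 to 82505779, Gfi1 of tumor 39 had a peak with a score of 1055.09, at percentile 80.7, and Lsd1 of tumor 41 had one with 131.76, at percentile 38.2. Gfi1 of tumor 41 and Lsd1 of tumor 39 had none. The pair with a peak was therefore neither of 1 tumor nor of 1 factor. The outermost start, at 82705750, had a peak only in Lsd1 of tumor 39, with a score of 50.19 at percentile 0.166.

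**Figure D3:**
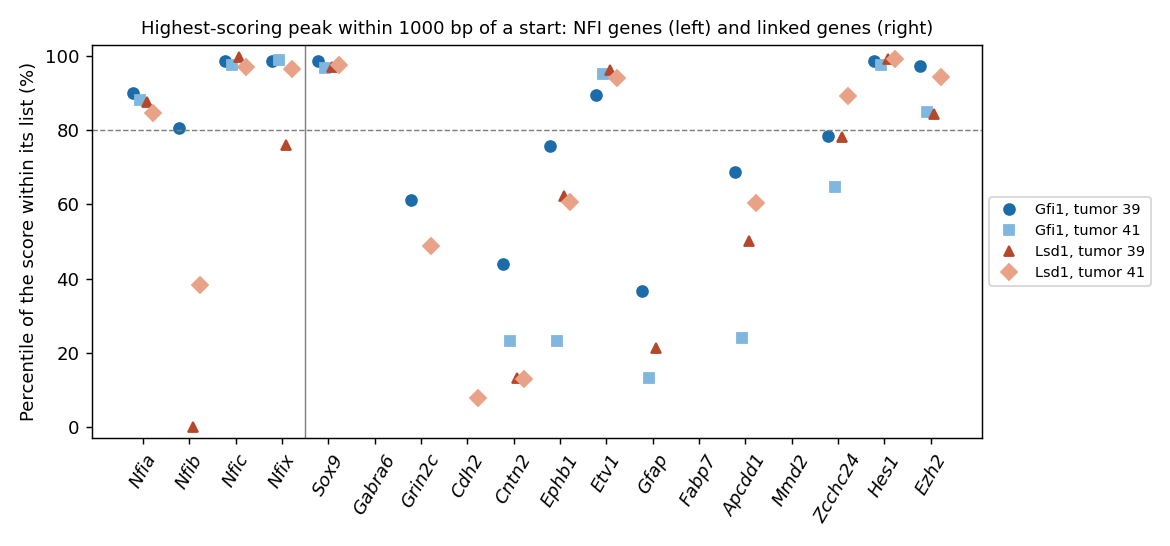
Percentile, within its own list, of the highest-scoring peak within 1000 bp of a start, for the 4 NFI genes (left of the line) and 14 genes tied to NFI proteins in neural cells (right). Each symbol is 1 library, a missing symbol means no peak, and the dashed line is the cutoff at the 80th percentile. Nfia and Nfic lie above the cutoff in all 4 libraries, Nfix in 3 and Nfib in 1.

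Gfi1 and Lsd1 overlapped at the NFI genes as often as elsewhere in some libraries and more often in others. Of the Gfi1 peaks at the NFI genes, 48 of 52 in tumor 39 and 53 of 59 in tumor 41 shared at least 1 bp with an Lsd1 peak of the same tumor, or 92.3% and 89.8%. Over all Gfi1 peaks the shares were 69% and 88.9%. Of the Lsd1 peaks, 43 of 56 and 41 of 55 met a Gfi1 peak, or 76.8% and 74.5%, where all Lsd1 peaks gave 77% and 62.6%. The exact 95% binomial intervals, which cover counting error only, ran from 81.5% to 97.9% and from 79.2% to 96.2% for Gfi1. For Lsd1 they ran from 63.6% to 87.0% and from 61.0% to 85.3%. The background lay outside the interval only for Gfi1 of tumor 39, and peaks along 1 gene are not independent. A 1 bp overlap is also easier to meet for wide peaks, such as those at Nfix and Nfic, than for narrow ones.

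The genes differed in where the overlap failed. At Nfix all 20 and all 25 Gfi1 peaks met an Lsd1 peak, and 15 of 16 and 15 of 15 Lsd1 peaks met Gfi1. At Nfia all 17 Gfi1 peaks of tumor 39 did, but 18 of 23 in tumor 41, and 17 of 28 and 18 of 25 Lsd1 peaks met Gfi1. At Nfic 9 of 12 and 8 of 8 Gfi1 peaks met Lsd1, and 9 of 9 and 6 of 11 Lsd1 peaks met Gfi1. At Nfib it was 2 of 3 in each Gfi1 library, and 2 of 3 and 2 of 4 for Lsd1. Counted in bases of the gene body, Gfi1 and Lsd1 shared 89.9% and 92.1% of their union at Nfix in tumors 39 and 41 and 92.5% and 85.3% at Nfic. They shared 50.1% and 59.8% at Nfia and 33.5% and 37.6% at Nfib. The 2 Gfi1 libraries shared 86.7% of their union at Nfix and 58.3% at Nfia, so that replicates of 1 factor shared about as much as the 2 factors did.

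The high-confidence rule, after that of the study, kept the best-scoring 20% of each list and asked that 50% or more of a tumor 39 peak lie in kept peaks of tumor 41. At the NFI genes, 11 Gfi1 peaks met it, 6 at Nfix, 3 at Nfia and 2 at Nfic, and 8 Lsd1 peaks, 4 at Nfic, 3 at Nfix and 1 at Nfia. Nfib had none of either factor. At a start, 3 of the 4 genes had a high-confidence Gfi1 peak, against 22.9% of all protein-coding genes, and 1 of 4, Nfic, had a high-confidence Lsd1 peak, against 25.9%. The 4 genes have 7 or 8 annotated starts each, and any of them could meet the rule. The share among genes of like length was not counted, so that these contrasts are no measure of enrichment. The Gfi1 peak over the main Nfic starts did not qualify in spite of its score in tumor 39, because its counterpart in tumor 41 was the one at percentile 41.4.

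Peaks of all 4 libraries broke off at 4 shared stretches of up to 1000 bp, of which 2 lay at starts and 2 away from them. Before the main starts of Nfia, 80 bp at chr4:97777521-97777600 lay under no peak, with a peak of each library ending within 74 bp before it and another starting within 8 bp after it. The GC content of these 80 bp was 87.5%, against 63.6% and 67.2% of the 500 bp on either side and 41.2% of the gene body. The first 60 of these 80 bases, which overlap no annotated exon, are printed because they show the composition at the break.
Nfia break, chr4:97777521-97777580, plus strand: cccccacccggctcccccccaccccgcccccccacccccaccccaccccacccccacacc

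At the upstream starts of Nfix, 266 bp at chr8:84799940-84800205 were likewise under no peak, and 2 of its annotated starts, 84800024 and 84800140, lay inside them. Their GC content was 85.7%, against 78.8% and 74.6% of the 500 bp on either side and 53.1% of the gene body. Both starts counted as having a peak only through the 1000 bp window. The other 2 breaks, of 119 bp at chr8:84748063-84748181 in Nfix and of 199 bp at chr4:97773994-97774192 in Nfia, had 54.6% and 40.7% GC. The 500 bp on either side held 43.8% and 43.6% at the Nfix break, which was thus richer in GC than its flanks, and 41.4% and 37.0% at the Nfia break. Whether GC content bears on these breaks was not tested.

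Base composition went with coverage across genes. Nfix held 19.9 and Nfic 19.6 CG dinucleotides per kb, which ranked 33 and 37 of the 5007 long genes, while Nfib held 10.3 and Nfia 9.27, near the median of 9.50. Across the 5007 genes, CG density and the mean covered share correlated at a Spearman rho of 0.598 and a Pearson r of 0.548. The genes share the same 4 libraries and are not independent replicates, and the values are a description. Of the 37 genes at least as CG-rich as Nfic, Nfix and Nfic included, 5 were covered over 50% in each library. Among all 5007 there were 7 such genes. The median of the 37 in the least covered library was 9.71%. Over all 5007 genes this median was 0.959%, and the 95th percentile was 9.16%. The 37 genes were thus mostly covered more than other long genes, though over a wide range. The part of CG density in the coverage of Nfix and Nfic was not tested.

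**Figure D4:**
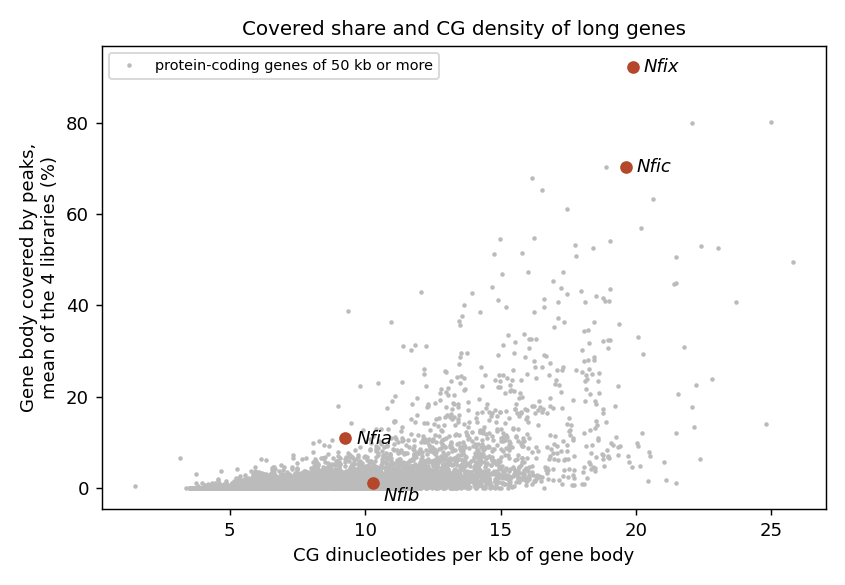
Mean share of the gene body under peaks over the 4 libraries, in percent, against CG dinucleotides per kb of gene body, for 5007 protein-coding genes of 50 kb or more (grey) and the NFI genes (red). Nfix lies at 92.2% and Nfic at 70.3% among CG-rich genes, most of which lie lower, and Nfia and Nfib lie near the median CG density.

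At each of the 26 sites found in all 4 libraries, 300 bases were searched on both strands. They lay at the centre of the longest stretch of the site shared by all 4 libraries, which can lie far from the centre of a wide site. Peaks that reached within 10 kb of a gene were kept whole, so that some centres lay farther out. These were chr8:84688784-84689083 and chr8:84815092-84815391 at Nfix and chr10:81385071-81385370 at Nfic, and they are counted below. AATC was present in 20 of the 26 and TTGGC in 18, against 73.1% and 46.7% of RefSeq promoters. Unlike promoters, the windows were not placed on starts, and no unbound windows of like composition were counted. The shares are thus no measure of enrichment. TTGGC was found at 12 of 14 sites of Nfia, 2 of 2 of Nfib, 4 of 7 of Nfix and 0 of 3 of Nfic. The longer Gfi1 core AATCAC, held by 10.4% of promoters, was found at none of the 26 centres, and the full NFI palindrome, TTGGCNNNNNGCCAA, held by 0.0365% of promoters, at none either. AATCAC did occur in the RefSeq promoters chr8:84780033-84780332 and chr8:84772826-84773125 inside Nfix, which had a peak in every library. The centre of a shared stretch is not the summit of a peak, and the lists give no summits.

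Other genes start under the same peaks. Within the window of Nfix, Lyl1, which encodes a helix-loop-helix factor of blood cells, and G430095P16Rik each had their start under a peak in all 4 libraries, and so had 3 starts of Trmt1, a tRNA methyltransferase gene. Within the window of Nfic, the starts of Mir1191b and Mir6913 were under a peak in all 4 libraries, and those of Smim24 in 1 or 3.

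As a list, 14 genes tied to NFI proteins in neural cells were looked up at their starts. Of these, 8 had a peak in all 4 libraries, or 57.1% against 53.1% of all protein-coding genes, 3 in some libraries and 3 in none. Gabra6, a receptor subunit of mature granule neurons, and the glial genes Fabp7 and Mmd2 had no peak. Hes1, a Notch target of progenitors, ranked highest, at 98.6 and 97.5 for Gfi1 and 99.1 and 99.2 for Lsd1. Sox9, an inducer of Nfia, followed at 98.6 and 96.7 for Gfi1 and 97.0 and 97.6 for Lsd1. Of the granule neuron genes Etv1 ranked highest, between 89.4 and 96.2, whereas Cntn2 stood between 13.0 and 44.0. Gfi1 and Lsd1 high-confidence peaks were found at the starts of the same 4 genes, Sox9, Etv1, Hes1 and Ezh2, or 4 of 14, against 22.9% of all protein-coding genes for Gfi1 and 25.9% for Lsd1. Shares this near the background are not a result about the list.

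By the mean absolute difference of the start percentiles over the libraries with a peak, the gene most like Nfia was Nop2, at 0.743 percentile points over 4 libraries. For Nfic it was Cyhr1, at 0.338, and for Nfix it was Klhdc4, at 0.629, each among 11652 genes compared. For Nfib, which had a peak at its starts in 3 libraries, 930 genes could be compared, and the closest, Dennd5b, was 4.85 away.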

How the data were processed

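Gfi1 and Lsd1 ChIP-seq of 2 MG tumors gave 4 libraries, paired by tumor. Per the labels and the study's methods, the authors aligned reads to mm10 with BWA 0.6.2, merged alignments with Picard, removed duplicate reads and called peaks with MACS against input chromatin. The deposited lists give the position of each peak and a score. The score, of 50 or more, is defined nowhere in the sources used here and served only to rank peaks within a list. Lists carry no read counts, so that depth per peak is unknown. Starts were increased by 1.

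Genes and starts came from GENCODE M21, where the authors used M9, and sequences from GRCm38.p6 and RefSeq. No peak ran past a chromosome end of that build. Sites are peaks of any library merged where they share a base. A promoter or start peak lies within 1000 bp of any annotated start. Percentiles put ties at their mean rank. Named genes were the 4 members, 14 genes tied to NFI proteins in neural cells, genes starting under peaks in a member window and, for each member, the gene closest in its start percentiles. Members, lists and rules were chosen with earlier results of these data known. No test between groups was run, since members were listed and each factor has 2 libraries. Interval arithmetic was tested on simulated data. Python 3.11.15, numpy 2.4.6, scipy 1.17.1 and pysam 0.24.0 were used. Alternatives varied the window, score cutoff, merging, start definition, overlap rule and libraries.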

Additional observations from a re-analysis of the deposited data

How the results depend on the processing

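The values come from counts and shares with no test. NFI genes with a start peak in all 4 libraries numbered 3 in the main analysis and 2 with the outermost start only. Without Gfi1 of tumor 41, which has no start peak at Nfib, 4 genes had one in each remaining library. Keeping peaks of the upper 20% of the score only gave 17 merged sites in place of 55, 5 in all 4 libraries in place of 26, 52.9% of sites at a start in place of 21.8%, and factor overlaps of 54.8% for Gfi1 and 82.5% for Lsd1 in place of 91.1% and 75.7%. Trimming peaks to their central 200 bp gave 142 sites, 8 in all 4 libraries and overlaps of 31.3% and 32.4%. A window of 50 kb put the Gfi1 overlap at 88.5%, a minimum of 50% of the peak put the Lsd1 overlap at 70.3%, and the partner of the other tumor put it at 79.3%. Counting the outermost start only put 9.09% of sites at a start and left Nfia as the highest gene at percentile 82.6, where Nfic had stood at 98.2. High-confidence Gfi1 peaks numbered 5, 22 and 44 at the upper 10%, the upper 40% and with no cutoff, and Lsd1 peaks 22 and 44 at the last 2. Nfix ranked 3 by covered body with upper 20% peaks and 189 with peaks under 10 kb, and Nfic 4 and 109. Nfic ranked 7 among genes of 25 kb or more and 5 by the mean of the 4 libraries. These rankings were chosen after seeing the data. Leaving out each library gave Nfic ranks from 2 to 4, with 4 without Gfi1 of tumor 41, and Nfix stayed at 1. The cause of these shifts was not tested beyond their construction. Of 36 main values without 1 library, which include the ranks of Nfix and Nfic, 35 stayed within set limits. The limits were 1.5 times a count or rank, 1 SD of an overlap or percentile, or the binomial interval of the share at starts. For overlaps this was fixed by construction, since the value of 1 tumor always lies within 1 SD of the mean of 2. High-confidence sets need both replicates, so that no library could be left out of them. No paired analysis was possible because the results come from no test, and factor overlaps are described within each tumor. Without read counts, no limit of detection can be given for a stretch with no peak.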
